A study of Mus musculus with 8 samples.

Results

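The transcripts of 10 genes of bone, Bglap, Bglap2, Ibsp, Sp7, Dmp1, Spp1, Col1a1, Col1a2, Acp5 and Ctsk, were followed through the olfactory bulb of mice that inhaled diesel exhaust after rearing in standard cages or with environmental enrichment. The genes were chosen by their known roles in osteoblasts, osteocytes and osteoclasts, and with their signals on these arrays already known, so every value below is a description and carries no test. They are 10 of the 34797 gene names on the array. Of its 55681 noncontrol probes 13 carried one of these names, and 10 of the 13, from 9 genes, exceeded background clearly on each of the 8 arrays by the scanner software's flag (well above background). In all, 30700 probes met this flag everywhere. Ibsp had no probe that met it on every array.

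Olfactory bulbs came from male C57BL/6J mice at 56 days of age. The C-C group was reared in standard cages and kept in clean air, and the C-DE group was reared in standard cages and inhaled diesel exhaust. The EE-C and EE-DE groups had larger cages with a running wheel and toys from before birth, and then breathed clean air (EE-C) or diesel exhaust (EE-DE). The exhaust was held at 90 µg/m3, and mice breathed it daily for 8 h on 28 days. Per the methods, each group's bulb RNA was pooled before labelling, with 1 bulb a cage, and the pool was split between 2 one-colour Agilent arrays. The pools held 7 mice each for C-C and C-DE, 8 in the case of EE-C and 9 in that of EE-DE. A group is therefore 1 pool. That both arrays of a group hold the same RNA rests on the methods, and was not tested, although several of the members differed widely between such duplicates. The 2 arrays say nothing of how mice differ, and exposure and rearing could not be tested. The 8 arrays shared 1 slide, on which standard-cage arrays filled one column and enriched arrays the next, and rearing and slide column cannot be told apart. The 75th percentile of the intensity, by which each array was scaled, lay between 644 and 716. Well above background were 56.7% of the spots on the first array of EE-DE and 68.0% to 70.6% elsewhere.

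Bone is built by osteoblasts, which secrete a matrix of type I collagen and load it with proteins that bind calcium and mineral. Some become osteocytes, enclosed in the mineral, while osteoclasts, large cells of the macrophage lineage, dissolve mineral with acid and digest the collagen with proteases. The olfactory bulb holds no bone of its own. It lies against the cribriform plate, the perforated bone through which the olfactory nerve enters, and its coverings and vessels contain fibroblasts that make type I collagen. Spp1, Ctsk and Acp5 are also known from macrophages.

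Both osteocalcin probes are shown because, among the 10 probes above background on all arrays, they differed most from array to array. Bglap and Bglap2 encode osteocalcin, the small calcium-binding protein of the osteoblast, and are nearly identical neighbours in the genome. The brighter Bglap probe (chr3:88188307-88188366 of mm9, minus strand) spans the start of translation, with the start codon in capitals. The Bglap2 probe (chr3:88181822-88181881, minus strand) is given whole, in lower case. Of the dimmer Bglap probe (chr3:88187792-88187851, minus strand) the first 30 bases are given.
Bglap, brighter probe: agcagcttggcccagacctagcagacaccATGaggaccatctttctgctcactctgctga
Bglap2 probe: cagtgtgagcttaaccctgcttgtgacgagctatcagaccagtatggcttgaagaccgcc
Bglap, dimmer probe: ttgtgctggagtggtctctatgacctgcag
The array's own annotation lists the same Bglap transcript for the brighter Bglap probe and for the Bglap2 probe, and not for the dimmer Bglap probe. The Bglap2 probe can therefore also read Bglap, and which osteocalcin gene gave its signal is uncertain.

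Upstream sequence was looked up for the 10 genes in the RefSeq promoter table (GRCm38.p6), which held 11 start sites of 7 of them. Bglap2, Sp7 and Col1a1 were not among these. The 250 bases before the Bglap start (chr3:88384467-88384716, minus strand) are shown since its signal moved together with those of other members. Capitals mark the TATA box letters TATAAA and the letters ACCACA, the core that Runx factors, among them the osteoblast regulator Runx2, are known to bind.
Bglap promoter: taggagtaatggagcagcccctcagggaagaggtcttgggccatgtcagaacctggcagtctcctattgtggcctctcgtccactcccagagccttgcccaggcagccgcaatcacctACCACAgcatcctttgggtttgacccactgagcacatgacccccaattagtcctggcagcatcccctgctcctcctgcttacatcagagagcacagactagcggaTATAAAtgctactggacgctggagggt
On either strand, TATAAA occurred in 12.4% and ACCACA in 14.0% of all 32851 such windows of 250 bases. Among the 11 windows of members, 3 held TATAAA and 3 held ACCACA. In Bglap, TATAAA began 27 bases before the start and ACCACA 132 bases before it. Ibsp had TATAAA on the opposite strand at 28 bases, and 1 window each of Spp1 and Dmp1 held ACCACA, at 128 and 164 bases. The Spp1 window also held TATAAA, at 211 bases. None of these letters was found in the windows of Acp5, Ctsk or Col1a2. A match is a description of the sequence and not a binding site.

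Among the members above background on all 8 arrays, osteocalcin differed most from array to array. The Bglap2 probe measured intensities of 1919 and 1118 on the first and second C-C array, 548 and 1427 in C-DE, 1196 and 790 in EE-C, and 1241 and 1321 in EE-DE. The first C-C array was the highest and the first C-DE array the lowest, while the second C-DE array lay above the second C-C array, so the groups overlapped. The brighter Bglap probe, at far lower intensity, showed the same order at both ends: 243 and 124 in C-C, 71.0 and 166 in C-DE, 140 and 87.0 in EE-C, and 142 and 155 in EE-DE. In C-DE/C-C, Bglap2 was lower by a log2 difference of −0.67, with a range of −1.79 to 0.45 over the 4 ways to pair a C-DE array with a C-C array. For Bglap the difference was −0.62 (−1.75 to 0.52). Without the first C-DE array these differences were 0.00 and −0.02, and without the first C-C array they were −0.22 and −0.07. Both probes passed 1.5-fold (0.585 on the log2 scale) with all arrays in, and neither did without either of these arrays. The dimmer Bglap probe was not well above background on any array, with intensities of 2.22 to 8.02.

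Bone sialoprotein (Ibsp), which nucleates mineral in the osteoblast's matrix, was near the limit of detection. Its brighter probe was well above background on 7 arrays and its dimmer probe on 4. The brighter probe measured 43.3 and 32.1 in C-C, 20.6 and 27.0 in C-DE, 33.0 and 26.7 in EE-C, and 13.5 and 38.2 in EE-DE. Its highest array was again the first of C-C, but its lowest was the first EE-DE array, the one with fewer spots above background. In C-DE/C-C its difference was −0.61 (−1.05 to −0.16). The dimmer probe measured 20.2 and 10.1 in C-C, 3.59 and 13.1 in C-DE, 10.4 and 11.1 in EE-C, and 5.63 and 10.3 in EE-DE. It was above background on 1 of 2 arrays in each of C-C and C-DE, so no fold is given for it. Since neither probe was above background on all arrays, they do not enter the counts below.

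The other osteoblast and osteocyte genes were flat. Sp7 (osterix), the transcription factor that commits cells to the osteoblast lineage, measured 461 and 545 in C-C, 495 and 482 in C-DE, 515 and 565 in EE-C, and 575 and 491 in EE-DE. Dmp1, an acidic matrix protein of osteocytes, measured 109 and 119, 115 and 123, 99.1 and 123, and 113 and 119 in the same order. Spp1 (osteopontin), a phosphoprotein of mineralized matrix that macrophages also secrete, measured 834 and 881, 768 and 837, 921 and 966, and 981 and 889. From the lowest to the highest array these 3 probes spanned 0.20 to 0.30 on the log2 scale, beside a median span of 0.27 over all 30700 probes. Bglap2 spanned 1.79, and 0.671% of all probes spanned as much. Small differences of one sign in all 4 pairings were common on these arrays. They were found for 41.5% of all probes in the C-DE/C-C comparison, 33.9% in EE-DE/EE-C, 39.5% in EE-C/C-C, 41.1% in EE-DE/C-DE and 47.3% in EE-DE/C-C, and for 1, 1, 3, 4 and 1 of the 10 members' probes. Spp1 was higher in EE-C/C-C in all 4 pairings, by 0.14 (0.12 to 0.17), or 1.11-fold. Dmp1 was higher in C-DE/C-C in all 4 pairings, by 0.12 (0.08 to 0.15).

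Type I collagen, which is the triple helix of 2 Col1a1 chains and 1 Col1a2 chain, moved with osteocalcin on a smaller scale. Col1a1 measured 3518 and 2582 in C-C, 1591 and 2701 in C-DE, 2295 and 2027 in EE-C, and 2697 and 2337 in EE-DE. Col1a2 measured 7402 and 5390 in C-C, 3806 and 6099 in C-DE, 5591 and 5442 in EE-C, and 6055 and 5610 in EE-DE. For both chains the first C-C array was the highest and the first C-DE array the lowest. In C-DE/C-C they differed by −0.48 (−1.13 to 0.16) and −0.33 (−0.94 to 0.27). Without the first C-DE array the differences were −0.12 and −0.01, and without the first C-C array −0.20 and −0.05. In EE-C/C-C, Col1a1 was lower in all 4 pairings, by −0.48 (−0.89 to −0.07), and by −0.20 without the first C-C array.

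Of the osteoclast genes, one moved with osteocalcin and the other did not. Acp5, the tartrate-resistant acid phosphatase that stains osteoclasts, was read by a brighter and a dimmer probe that overlap in 45 of their 60 bases (chr9:21931190-21931249 and chr9:21931175-21931234 of mm9), so they are not independent readings. The brighter measured 641 and 348 in C-C, 252 and 383 in C-DE, 411 and 284 in EE-C, and 413 and 588 in EE-DE. The dimmer measured 445 and 236, 153 and 249, 321 and 181, and 270 and 377. The first C-C array was again highest and the first C-DE array lowest. In C-DE/C-C the brighter probe differed by −0.55 (−1.33 to 0.23) and the dimmer by −0.67 (−1.52 to 0.18). Without the first C-DE array these were −0.27 and −0.34, and without the first C-C array −0.05 and −0.16. In EE-DE/C-DE the dimmer probe was higher by 0.62 (0.00 to 1.24) and the brighter by 0.57 (−0.01 to 1.16). Ctsk, cathepsin K, the protease with which osteoclasts cleave collagen, measured 577 and 495 in C-C, 484 and 514 in C-DE, 619 and 544 in EE-C, and 617 and 580 in EE-DE. Its C-DE/C-C difference was −0.04 (−0.24 to 0.15), and in EE-DE/C-DE it was higher in all 4 pairings, by 0.17 (0.14 to 0.20). In RNA of whole tissue, fewer cells of a type and less RNA per cell cannot be told apart.

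**Figure D1:**
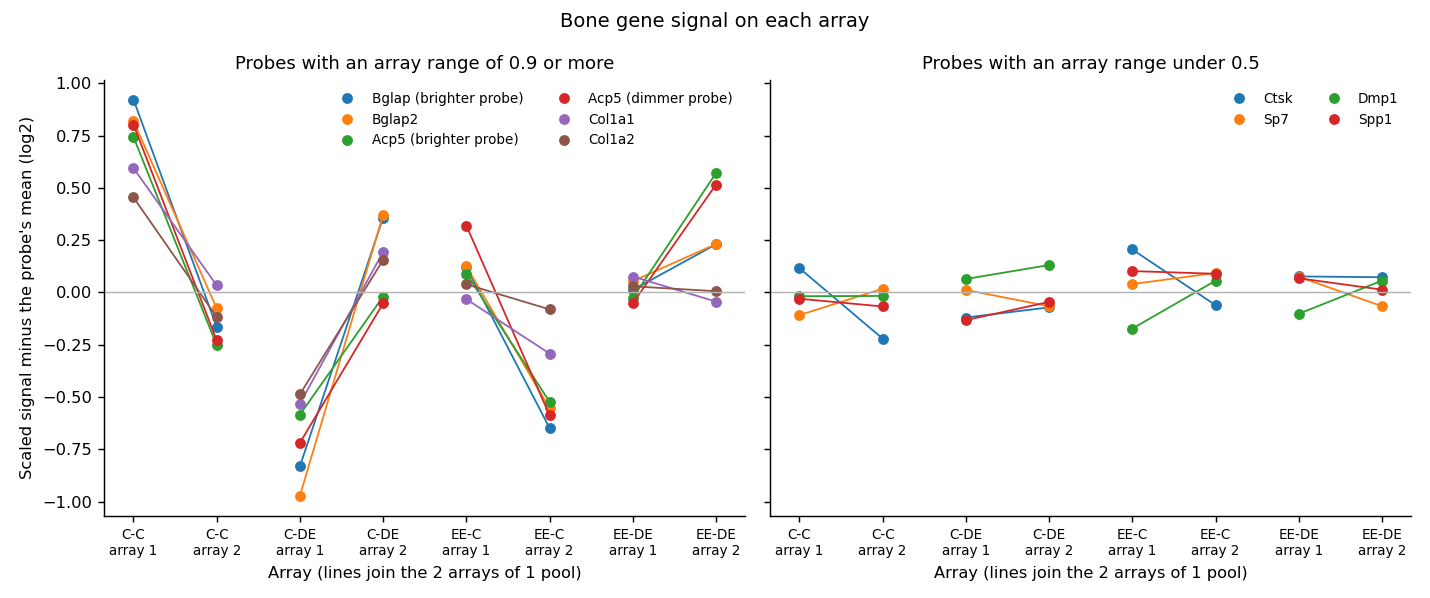
Scaled signal of the 10 probes well above background on all 8 arrays, on the log2 scale, minus each probe's mean. Points are arrays and lines join the arrays of 1 pool. In the left panel the first C-C array is the highest and the first C-DE array the lowest for all 6 probes of Bglap, Bglap2, Acp5, Col1a1 and Col1a2, and in the right panel Ctsk, Sp7, Dmp1 and Spp1 span at most 0.43.

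Several of the members differed widely between the 2 arrays of one pool. In C-C, 4 of the 10 probes lay at least 1.5-fold apart, beside 1.1% of all probes. In C-DE these were 5 of 10, beside 0.954%, and in EE-C 4 of 10, beside 2.83%. In EE-DE they were 1 of 10, beside 1.87%. The members' median gap, first minus second array, was 0.57 for the C-C pool and −0.60 for the C-DE pool, 0.26 for the EE-C pool and −0.08 for the EE-DE pool, while the median over all probes lay within 0.01 of 0 in every pool. The Bglap2 duplicates in C-DE were 2.54-fold apart, and 21 of the 30700 probes had as large a gap there. The Acp5 duplicates in EE-DE were 1.51-fold apart for the brighter probe and 1.48-fold for the dimmer. Sp7, Dmp1 and Spp1 were at most 1.17-fold apart between duplicates in every pool, and Ctsk at most 1.26-fold. Around the spot of each of the 10 probes lay 281 to 530 passing spots within 15 rows and columns. Their median gap was between −0.11 and 0.03. A shift confined to a member's own spot would not show in these medians and was not tested. No member spot had an outlier flag on any array.

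**Figure D2:**
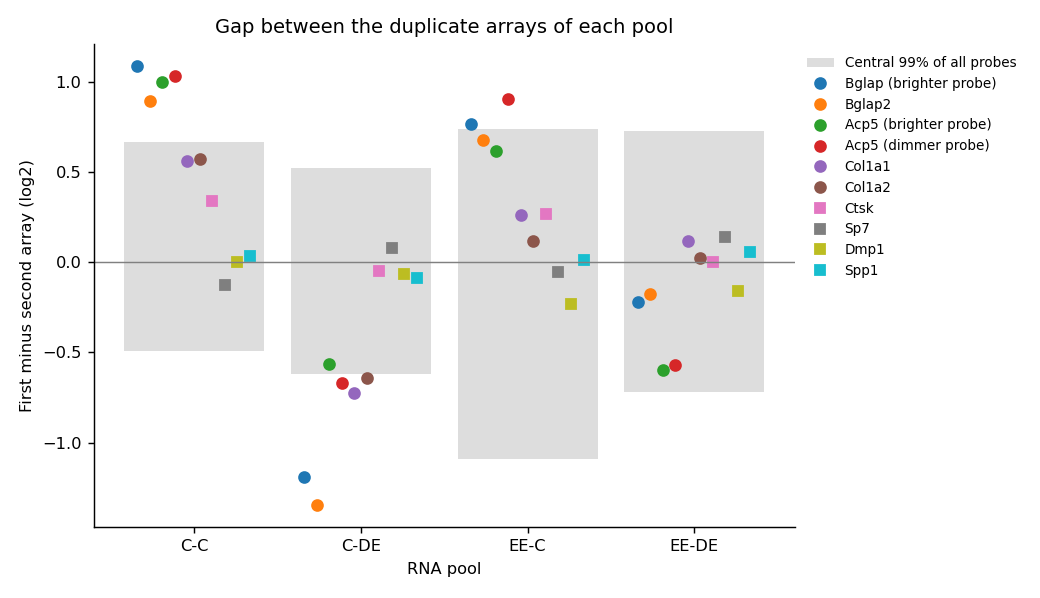
Difference between the first and second array of each pool (log2) for the 10 probes, with circles for Bglap, Bglap2, Acp5, Col1a1 and Col1a2 and squares for Ctsk, Sp7, Dmp1 and Spp1. Grey boxes hold the central 99% of all 30700 probes. In C-C, Bglap, Bglap2 and both Acp5 probes lie above the box. In C-DE, Bglap, Bglap2, the dimmer Acp5 probe, Col1a1 and Col1a2 lie below it, and in EE-C, Bglap and the dimmer Acp5 probe lie above it.

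Set against each other, the pools differed as follows in the question of the exposure. When C-DE was set against C-C, 3 of the 10 members' probes passed 1.5-fold, all lower (Bglap, Bglap2 and the dimmer Acp5 probe), beside 0.762% of all probes. None of the 3 passed with normexp background correction, or without the first C-DE or the first C-C array. The members' median was −0.41 and that of all probes −0.01. Without the first C-DE array the members' median was −0.02, and without the first C-C array −0.05. In all 4 pairings, 1.5-fold was passed by 0 of 10 members' probes in each of the 5 comparisons. Of all probes, 0.137% passed it so in the C-DE/C-C comparison, 0.117% in EE-DE/EE-C, 0.0586% in EE-C/C-C, 0.179% in EE-DE/C-DE and 0.221% in EE-DE/C-C. With enriched rearing (EE-DE/EE-C), 0 of 10 passed, beside 1.27% of all probes, and the members' median was 0.11. Bglap differed there by 0.39 (−0.11 to 0.88), Bglap2 by 0.36 (−0.07 to 0.79) and the brighter Acp5 probe by 0.49 (−0.12 to 1.09). Without the second EE-C array these were 0.0013, 0.017 and 0.18, and 0 of 10 passed. Without the first EE-C array they were 0.77, 0.70 and 0.80, and 4 passed, while 2 passed without the first EE-DE array. For counts with 1 array left out, no share of all probes is given. The difference between the exposure's values in the standard and enriched cages was not tested.

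For rearing, 2 of 10 probes passed 1.5-fold in EE-C/C-C, both lower, beside 1.08% of all probes. These were Bglap, at −0.64 (−1.57 to 0.28), and Bglap2, at −0.59 (−1.37 to 0.20) and so just past the threshold, and without the first C-C array they differed by −0.10 and −0.14. Without the second EE-C array they differed by −0.26 and −0.25. With normexp 0 of the 10 passed, while 1 passed with median scaling and 1 in the series table of the authors. The members' median was −0.30, and 0.04 without the first C-C array. In EE-DE/C-DE, 1 of 10 passed, the dimmer Acp5 probe, which was higher, beside 0.85% of all probes. The members' median was 0.18, and it was −0.03 without the first C-DE array and 0.53 without the second. With normexp, or without the first C-DE or the second EE-DE array, 0 passed. Bglap2 differed by 0.44 (−0.32 to 1.20) and Bglap by 0.36 (−0.35 to 1.06), and without the first C-DE array both turned lower, at −0.23 and −0.24. In EE-DE/C-C, where both treatments were combined, 0 of 10 passed, beside 1.33% of all probes, and the median was −0.03. The comparisons share pools (C-C stands in 3 of them), so their values are not independent of each other. Since the members were chosen with these values known, nothing is read from their counts.

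**Figure D3:**
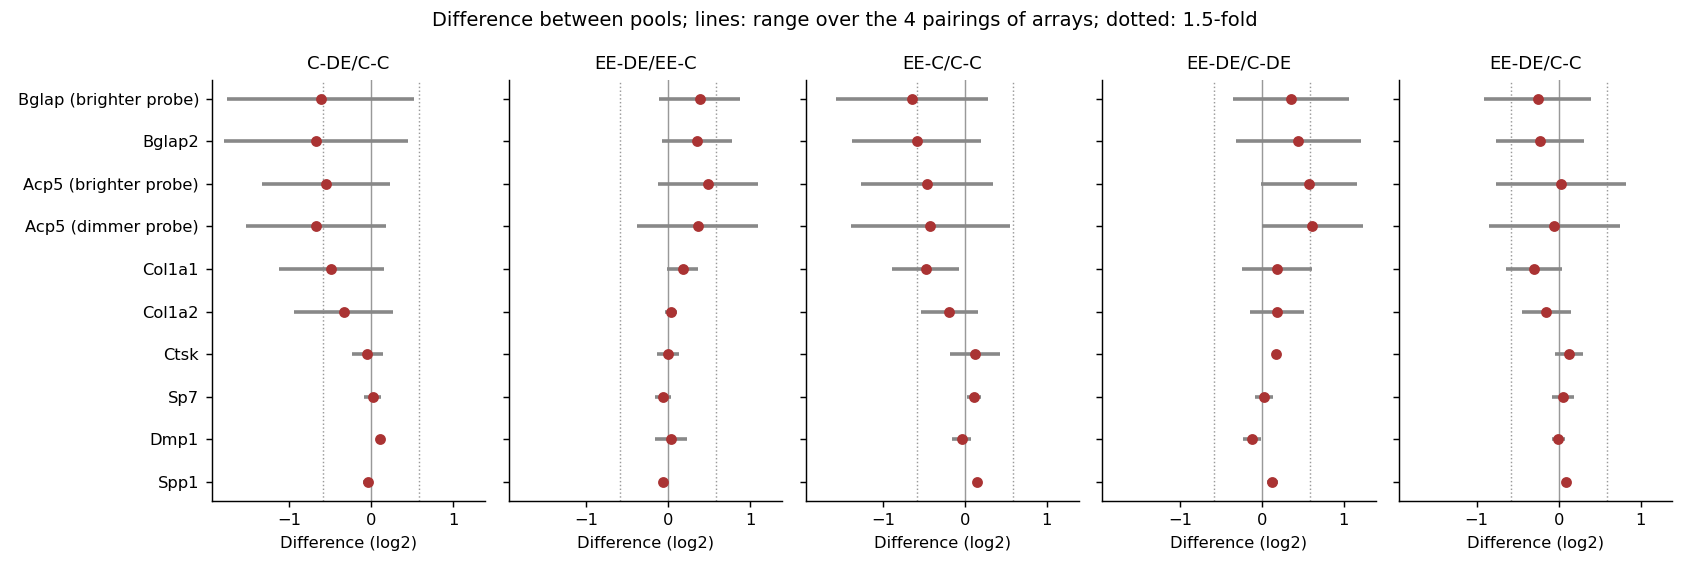
Differences between pools (log2) for the 10 probes in the 5 comparisons. Points are differences of the mean log2 signal of 2 arrays a pool, lines their range over the 4 pairings of arrays, and dotted lines mark 1.5-fold. In C-DE/C-C the lines of Bglap, Bglap2, Acp5, Col1a1 and Col1a2 run from far below 0 to above it.

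How closely the members followed osteocalcin was described by Pearson's r with the mean of the Bglap and Bglap2 probes over the 8 arrays, which come as 4 pairs from shared pools and share 1 slide. It was 0.96 for Col1a1, 0.94 for Col1a2, and 0.90 and 0.92 for the Acp5 probes. It was 0.53 for Ctsk, 0.15 for Spp1, −0.18 for Dmp1 and −0.69 for Sp7. Of the 906 probes compared, which were not of the members and spanned at least 1 log2 unit over the arrays, 1 reached an r of 0.9. It was a probe of Uncx, a homeobox transcription factor, at 0.96. The members were not held to this span, which Col1a2 (0.94) did not reach. Among the genes of the lists below, Plod2, a lysyl hydroxylase of collagen, had an r of 0.91 at a smaller span, with intensities of 203 to 246. Uncx measured 56.8 and 39.6 in C-C, 26.4 and 40.0 in C-DE, 41.4 and 29.8 in EE-C, and 45.7 and 39.3 in EE-DE. Next came Sult6b1, a sulfotransferase, at 0.85, Glb1l2, a relative of beta-galactosidase, and Gadl1, a relative of glutamate decarboxylase, both at 0.82, and then a probe for an unnamed transcript, at 0.80.

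Other genes of bone cells were read as lists. Of the 14 further osteoblast and osteocyte genes compared, 11 were detected well above background throughout, and 0 passed 1.5-fold in any comparison. Since 0.762% to 1.33% of all probes did so, a count of 0 does not set the list apart. Their median in C-DE/C-C was −0.06. The brightest were Sparc (osteonectin), a collagen-binding protein made by many cell types, at −0.05 in C-DE/C-C, Fgf23, a hormone of osteocytes that lowers phosphate, at −0.14, Dlx5, a homeobox factor of osteoblasts and of bulb interneurons, at −0.08, and Smpd3, a sphingomyelinase needed for mineralization, at −0.05. The Fgf23 value is that of the brighter of its 2 probes, with intensities of 17229.5 to 22551.6. Its other probe is not reported here. Whether the brighter probe reads Fgf23 alone was not tested, so its level is not read as that of the gene. The osteoblast gene Ifitm5 and Sost, the osteocyte's sclerostin, were not well above background on any array. The array thus gave osteocalcin but not every defining marker of bone cells, and the set is best called by its genes.

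Of 13 further osteoclast genes, 9 were well above background throughout, and in C-DE/C-C none passed 1.5-fold, with a median of 0.03. Car2, the carbonic anhydrase that supplies acid, was at 0.03, Ostm1 and Clcn7, partners in a chloride transporter, at 0.03 and −0.04, and Tcirg1, a proton pump subunit, at 0.04. Ocstamp, which acts in the fusion of osteoclast precursors, was higher in EE-DE/C-DE, by 0.60, through an intensity of 118 on the first EE-DE array against 50.0 on the second. It was the only one of the 9 past 1.5-fold in any of the 5 comparisons, beside 0.762% to 1.33% of all probes in each. Calcr, the calcitonin receptor, and Atp6v0d2 were not well above background on any array.

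Genes of collagen assembly and of bone remodelling signals were read in the same way. Of 12 partners and processors of type I collagen, 11 were well above background, and 0 passed 1.5-fold in any comparison, where 0.762% to 1.33% of all probes did. Col3a1, the chain of type III collagen, was lower in C-DE/C-C in all 4 pairings, by −0.37 (−0.44 to −0.30), beside −0.33 for Col1a2. Fn1 (fibronectin), Bmp1 and Pcolce, which act in procollagen cleavage, and Col6a1 differed by −0.04, 0.00, 0.01 and 0.04 in C-DE/C-C. Of 6 remodelling signals, 4 were well above background and 0 passed. Il34 and Csf1, ligands of the macrophage receptor Csf1r, differed by 0.01 and −0.05. Tnfrsf11b (osteoprotegerin), the decoy receptor for Rankl, differed by 0.04, and Wnt16 by −0.08.

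Markers of the olfactory mucosa also differed from array to array. Over 7 olfactory mucosa genes, the summed signal in units of the 75th percentile was 7.68 and 4.27 in C-C, 1.97 and 2.61 in C-DE, 7.35 and 2.49 in EE-C, and 6.22 and 10.8 in EE-DE. As with Bglap2, the first array was the higher in C-C and EE-C and the lower in C-DE and EE-DE, and the first C-DE array was the lowest of all. The list's highest array was the second of EE-DE, while that of Bglap2 was the first of C-C. Over the 8 arrays, r with osteocalcin ran from 0.63 (Krt8) to 0.73 (Sec14l3) for the 7 genes. Of the 7, 6 were past 1.5-fold and lower in C-DE/C-C, beside 0.762% of all probes past it either way, and Cyp2g1, Krt8, Krt18 and Sec14l3 were so in all 4 pairings, beside 0.137%. In EE-DE/C-DE the same 4, with Cyp2f2 and Ugt2a1, were higher past 1.5-fold in all 4 pairings, beside 0.179% of all probes. In EE-DE/EE-C 4 of the 7 were higher past 1.5-fold (median 0.74), beside 1.27% of all probes past it either way. In EE-C/C-C 2 were lower, beside 1.08%, and in EE-DE/C-C 2 were higher, beside 1.33%. None of these genes passed in all 4 pairings of those comparisons. Cyp2g1, an enzyme of the mucosa's supporting cells and the brightest of the list, measured 1766 and 956 in C-C, 356 and 487 in C-DE, 1590 and 402 in EE-C, and 1583 and 2584 in EE-DE. Adh7 was not well above background on any array. Unlike Bglap2, the second C-DE array stayed below the second C-C array for this list.

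The neutrophil and marrow list had 10 of 11 genes above background. Its summed signal was 5.88 and 4.93 in C-C, 3.56 and 3.18 in C-DE, 10.6 and 4.12 in EE-C, and 6.60 and 4.31 in EE-DE, so the first array was the higher in all 4 pools, in contrast to Bglap2 in C-DE and EE-DE. In C-DE/C-C, 6 of 10 genes were past 1.5-fold and lower, beside 0.762% of all probes past it either way. S100a8, S100a9 and Ltf, neutrophil granule and cytosol proteins, were so in all 4 pairings, at −0.89, −0.88 and −0.95, beside 0.137% of all probes. Past 1.5-fold and higher were 6 of 10 in EE-DE/C-DE (median 0.74), beside 0.85% of all probes, and 2 in EE-C/C-C, beside 1.08%. In EE-DE/EE-C (median −0.32) and EE-DE/C-C 0 passed, where 1.27% and 1.33% of all probes did. Camp and Elane, also granule proteins and among the brightest, were at −0.50 and −0.24. Over the 8 arrays, r with osteocalcin ran from 0.04 (Chil3) to 0.45 (Retnlg) for the 10 genes. Mmp8 was not well above background on any array. The part of mucosa or marrow in the signals of the bone genes was not tested.

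Markers of the bulb, its macrophages and its coverings mostly stayed within 1.5-fold, the share of all probes past it being the 0.762% to 1.33% given above. The 8 microglia and macrophage genes, Itgam, Csf1r, Ctss and Cx3cr1 the brightest, had summed signals of 76.6 to 90.5, and 0 passed 1.5-fold in any comparison. Their sum was highest on the first C-C array and lowest on the first C-DE array, as was osteocalcin. Itgam was lower in C-DE/C-C in all 4 pairings, by −0.32 (−0.44 to −0.20). The 12 genes of bulb neurons, with Slc32a1, Gad1, Th and Meis2 in front, summed to 339 to 358, and 0 passed. The 6 genes of olfactory ensheathing glia, led by Fabp7, Npy, Sox10 and Frzb, summed to 128 to 158, and 0 passed. Of the 10 meningeal fibroblast genes, led by Dcn, Islr, Slc6a13 and Ogn, 1 passed, Dcn in EE-DE/EE-C, at 0.66 (0.11 to 1.20), with an intensity of 4150 on the first EE-C array against 8567 on the second. The list summed to 31.5 to 37.9, and its median in C-DE/C-C was 0.00. The 5 red cell genes compared were above background, Hba-a1, Hbb-b1, Hbb-b2 and Alas2 the brightest. Their sum was 52.7 to 76.4 and 0 passed. Each of the 5 read lower in C-DE/C-C (median −0.21) and higher in EE-DE/C-DE (median 0.22). The part of red cells in the signals of the bone genes was not tested. Of 7 cartilage genes 3 were above background throughout, Acan, Col2a1 and Col9a1, with a sum of 1.29 to 1.44, and 0 passed.

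**Figure D4:**
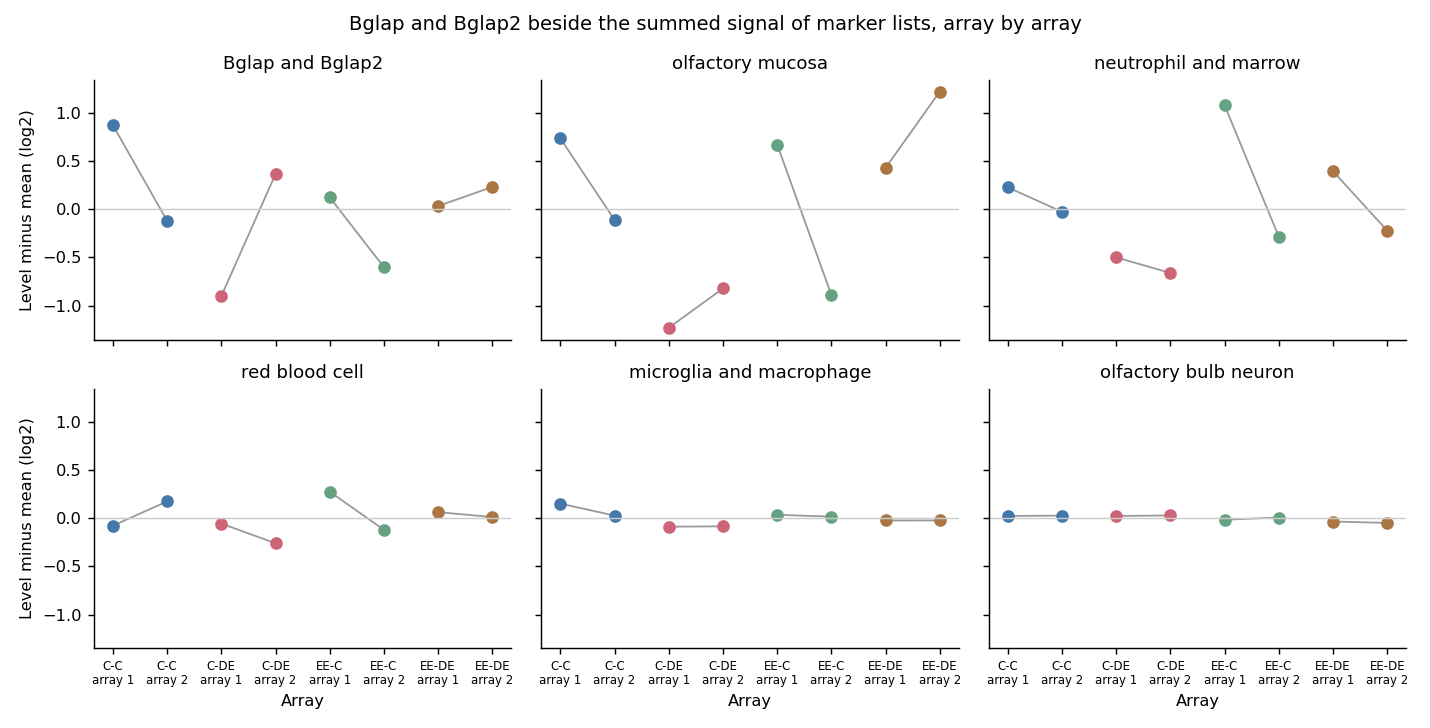
Mean level of Bglap and Bglap2, and the summed signal of 5 marker lists, on each array, on the log2 scale minus the mean over the 8 arrays. Colours are groups and lines join the arrays of 1 pool. The mucosa list is higher on the first array in C-C and EE-C and lower in C-DE and EE-DE, as is osteocalcin. Its highest array is the second of EE-DE. The microglia list spans less than osteocalcin but is likewise highest on the first C-C and lowest on the first C-DE array. The bulb neuron list is nearly level.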

How the data were processed

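Each of the 4 groups was 1 pool of olfactory bulb RNA on 2 Cy3 arrays (SurePrint G3 Mouse, 8 arrays in all), assigned from the labels. The deposited files hold the intensity of every spot as Agilent Feature Extraction 10.7.3.1 wrote it, background-subtracted within each array and not scaled between arrays per the file headers. A series table of log2 values, also deposited by the authors, served as an alternative. Probe coordinates are those of the files (mm9).

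Processed signals were taken to log2, the array's 75th percentile over noncontrol spots was subtracted, spots of a probe were averaged, and probes with every spot well above background on all 8 arrays formed the reference of 30700. A difference is that of the mean of 2 arrays a pool, given with its range over 4 pairings, and a probe was called at 1.5-fold. No test was made, because a group is 1 pool. The number of arrays and the signal over background limit the precision. For further lists the brightest probe of a gene was used.

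The members and lists were chosen with earlier results of these data known. The 10 genes and all their probes are named, and of each of the 12 lists the 4 brightest genes and those past 1.5-fold in all 4 pairings, besides the 5 genes most like osteocalcin over the arrays. Some genes were left out of the lists and of the likeness ranking and are not reported here. Genes at background, Ocstamp, Dcn, Col3a1 and Plod2 were named after their values were seen. Steps were tested on simulated data. Alternatives changed the background correction (normexp, offset 50), normalization, averaging, filters, probes and threshold, or left out each array. Normexp and quantile values came from limma 3.58.1 in R 4.3.3, all others from Python 3.11.15 with numpy 2.4.6 and pandas 2.3.3, and figures from matplotlib 3.10.9.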

Additional observations from a re-analysis of the deposited data

How the results depend on the processing

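The members' median differences moved by less than their spread over pairings under every other scaling, background correction, averaging, filter and choice of probe tried. With normexp the median moved from −0.30 to −0.17 in EE-C/C-C and from −0.03 to 0.01 in EE-DE/C-C. The counts past 1.5-fold did not. They are of 10 probes in the setting reported and of all 13 without a filter. The latter adds both Ibsp probes and the dimmer Bglap probe, which were not well above background on all arrays. The looser filter and the brightest-probe setting also changed the number of probes. No share of all probes is given for other backgrounds, scalings, filters or probe choices, so these counts are not read against each other. In C-DE/C-C, 3 probes passed in the setting reported, 0 with normexp background correction, 5 with no filter on dim probes, 0 when 1.5-fold was asked of all 4 pairings and 0 at 2-fold. In EE-C/C-C, 2 passed, against 0 with normexp, 1 with median scaling, 1 in the authors' series table, 0 over all pairings and 0 at 2-fold. In EE-DE/C-DE, 1 passed, against 0 with normexp, 2 without the filter, 0 with the brightest probe of each gene, 0 over all pairings and 0 at 2-fold. Without the filter, 1 passed in EE-DE/EE-C, while 3 did in EE-DE/C-C, and with a positive and significant signal as the filter 1 passed in EE-DE/C-C. Between duplicates, probes 1.5-fold apart numbered 2 at 2-fold against 4 in C-C, 2 against 5 in C-DE, 0 against 4 in EE-C and 0 against 1 in EE-DE. With normexp they numbered 2 in EE-C and 0 in EE-DE, and in EE-DE 2 with the looser filter and 3 without one. The cause of these shifts was not tested.

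Leaving out 1 array at a time moved the members' median between −0.74 and −0.02 for C-DE/C-C, −0.01 and 0.22 for EE-DE/EE-C, −0.62 and 0.04 for EE-C/C-C, −0.033 and 0.53 for EE-DE/C-DE, and −0.45 and 0.18 for EE-DE/C-C. The counts moved between 0 and 6, 0 and 4, 0 and 5, 0 and 4, and 0 and 2 in the same order. No share of all probes is given with 1 array left out, so nothing is read from these counts. In C-DE/C-C the count was 0 without the first C-DE array or the first C-C array and 6 without the second array of either pool. The Bglap2 difference in C-DE/C-C ran from −1.34 without the second C-DE array to 0.00028 without the first, a change of sign from −0.67. No paired analysis was possible because a group is 1 pool and no test was made. Signal over background limits Ibsp and the dimmer Bglap probe.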
